A study of Mus musculus with 4 samples.

Results

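The genes described here encode 10 histone chaperones: Ssrp1, Asf1a, Asf1b, Chaf1a, Chaf1b, Hira, Nap1l1, Daxx, Npm1 and Nasp. They were taken as a named list of genes, and all 10 were among the 11329 genes whose transcript level could be tested. The RNA came from 46C mouse ES cells carrying a TAP-tag knock-in at Atad2, so the tagged allele was present in the control as well as in the treated cells. The cells were grown with LIF and serum on gelatin and transfected either with a scrambled, inactive siRNA (si-ctrl, 2 libraries) or with an active siRNA against Atad2 (si-Atad2, 2 libraries). The libraries of each condition are numbered 1 and 2. The labels call the libraries replicates, whereas the paper describes repeat sequencing of each RNA and more than 1 active siRNA, so libraries of a condition may be repeat runs of the same RNA. Which siRNA went into which library is not given, and p-values measure only the spread between these libraries, which may be technical. Levels are in FPKM, the fragments per kilobase of transcript relative to library size, summed over the transcripts of a gene.

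Histone chaperones bind histones outside the nucleosome and hand them to DNA or take them from it. Some, such as CAF-1, work behind the replication fork, others, such as HIRA and the DAXX-ATRX pair, place the variant H3.3 independently of replication, and FACT opens and rebuilds nucleosomes in front of polymerases. Atad2 is an AAA ATPase with a bromodomain that binds acetylated histones on active chromatin, and the study asked how gene expression varies when it is depleted from ES cells. The comparison described here asks whether the transcripts of the chaperones differed after that depletion.

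The knockdown was visible in both pairs of libraries. Atad2 (chromosome 15, 58094044 to 58135082 of GRCm38, minus strand) dropped from 34.1 to 10.1 FPKM in pair 1 and from 36.0 to 13.02 FPKM in pair 2, summed over its transcripts. On the log2 scale of (FPKM + 1) these are ratios of -1.66 and -1.40, and their mean was -1.53 (SE 0.077, adjusted p = 7.5e-05 by limma with Benjamini-Hochberg adjustment over all genes). Ratios were taken within a pair, si-Atad2 1 over si-ctrl 1 and si-Atad2 2 over si-ctrl 2, because the authors scaled the libraries of each pair in a separate run, and levels set side by side across pairs carry that limit. Over all genes tested, 136 passed an adjusted p of 0.05 as higher in si-Atad2 and 32 as lower, which is 1.48% of the genes, and 1771 (15.6%) had an unadjusted p under 0.05. That count rested on single libraries: with all libraries scaled together and no pairing it was 28 without si-ctrl 1, 28 without si-ctrl 2, 573 without si-Atad2 1 and 1682 without si-Atad2 2. Markers of ES cells were abundant, with Pou5f1 between 701 and 807 FPKM and Nanog between 253 and 338 FPKM.

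None of the 10 chaperone genes passed the test by limma after Atad2 knockdown, against 1.48% of all genes. Their log2 ratios ranged from -0.18 for Nap1l1 to 0.08 for Chaf1a, and their adjusted p from 0.196 to 0.949. The 95% intervals of all 10 together ran from -0.32 to 0.22 on the log2 scale. At an unadjusted p under 0.05 there was 1 member of 10, Nap1l1, against 15.6% of all genes. The genes of the list were all well expressed, from 22.3 FPKM for Asf1a to 706 FPKM for Npm1.

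**Figure D1:**
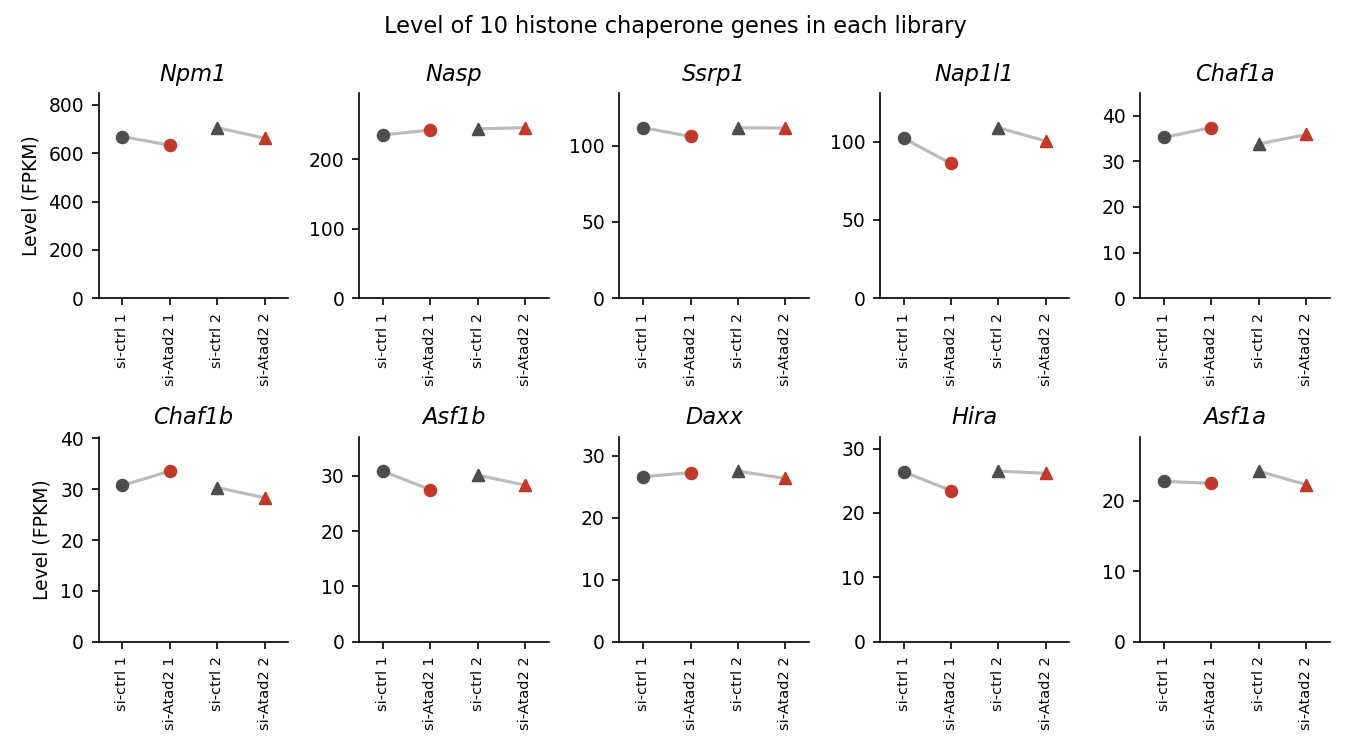
Level of each of the 10 histone chaperone genes, in FPKM on a linear axis from 0, in the 4 libraries, with si-ctrl in grey, si-Atad2 in red, pair 1 as circles, pair 2 as triangles, and a line joining the libraries of a pair. Within each gene the 4 values lie close together; the widest gap within a pair relative to its level is that of Nap1l1 in pair 1, from 102 to 86.0 FPKM.

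Small differences of the same sign in both pairs were more often downward. Lower in both pairs were 6 members (Asf1a, Asf1b, Hira, Nap1l1, Npm1 and Ssrp1), against 33.9% of all genes, and 2 members (Chaf1a and Nasp) were higher in both, against 28.5%. The downward count depended on the scaling: it was 5 with 31.7% of all genes after median-of-ratios scaling, and 3 (Asf1b, Nap1l1 and Npm1) with 23.6% of all genes after rescaling to TPM, which sets every library to the same sum. Both si-Atad2 levels were below both si-ctrl levels for those 6 genes, against 26.7% of all genes, and above them for Chaf1a alone, against 22.3%. The median log2 ratio of the members was -0.05, beside -0.01 over all genes tested. Between libraries of the same condition the members differed by -0.06 to 0.09 (si-ctrl 2 over si-ctrl 1, log2) and by -0.24 to 0.22 (si-Atad2 2 over si-Atad2 1). The mean change on knockdown exceeded both of these differences for 3 of the 10 genes, Asf1b, Chaf1a and Npm1. The share of all genes that did so was not counted, so this does not set the 3 genes apart from other genes.

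**Figure D2:**
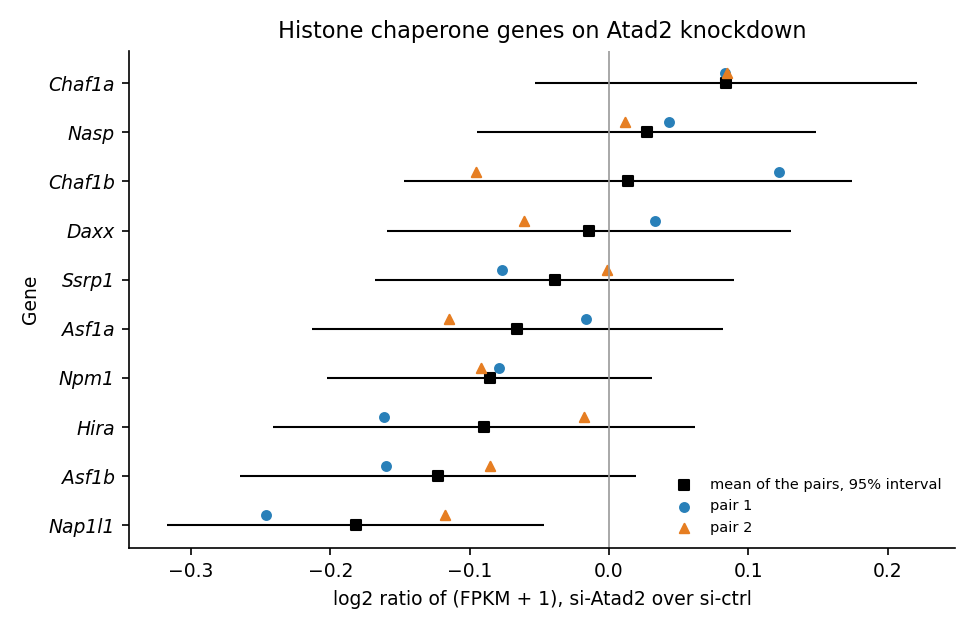
Log2 ratio of (FPKM + 1), si-Atad2 over si-ctrl, for each chaperone gene, with the mean of the pairs as a square, its 95% interval by limma as a line, and pairs 1 and 2 as a circle and a triangle. The interval of Nap1l1, from -0.32 to -0.05, is the only one that leaves out 0, before adjustment for the number of genes.

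CAF-1 places newly made H3-H4 on replicated DNA, and its large and middle subunits are encoded by Chaf1a and Chaf1b. Chaf1a (chromosome 17, 56040439 to 56072289, plus strand) was at 35.2 and 37.4 FPKM in si-ctrl 1 and si-Atad2 1, and at 33.8 and 35.9 FPKM in si-ctrl 2 and si-Atad2 2. The si-Atad2 library was the higher in each pair, and the groups did not overlap. The mean log2 ratio was 0.08 (95% interval -0.05 to 0.22, adjusted p = 0.552 by limma). The name Chaf1a is uncertain, since its locus is shared with Ubxn6 and its transcripts of 3714 and 4502 bases were assigned only because no annotated Ubxn6 transcript is that long. A rule of this kind named the right gene in 46.5% of the cases in which it could be checked. Of the read-length windows in the annotated transcript Chaf1a-201, 45.7% also occur in the overlapping gene Ubxn6. The level given for Chaf1a is therefore uncertain as well as its name.

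Chaf1b (chromosome 16, 93883901 to 93906115, plus strand) differed in opposite directions in the pairs. Its level was 30.8 FPKM (si-ctrl 1) against 33.6 FPKM (si-Atad2 1) in pair 1, and 30.3 FPKM (si-ctrl 2) against 28.3 FPKM (si-Atad2 2) in pair 2. The si-Atad2 libraries thus gave the highest and the lowest value, and the mean log2 ratio was 0.01 (95% interval -0.15 to 0.17, adjusted p = 0.949). Rbbp4, the small histone-binding subunit of CAF-1, lay between 87.1 and 89.7 FPKM in the 4 libraries. The Rbbp4 level was 2.51 times that of Chaf1a in si-ctrl 1 and 2.66 times in si-ctrl 2, and 2.33 and 2.44 times in si-Atad2 1 and 2, so this ratio was lower in both knockdown libraries.

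ASF1 receives H3-H4 dimers and passes them to CAF-1 or HIRA, and mice carry a pair of genes for it. Asf1a is the copy generally linked to HIRA, and Asf1b the copy linked to proliferating cells. Their coding sequences, of 612 bases for Asf1a and 606 bases for Asf1b in the GENCODE annotation, were identical at 440 of 601 aligned positions (73.2%), and the longest run they share is 20 bases. It begins at base 196 of both and is shown because it is shorter than a read of 50 cycles, so that no read-length window within the coding sequences is common to the genes. The run is in capitals with 12 coding bases on each side, and all letters are from the annotated transcripts:
Asf1a: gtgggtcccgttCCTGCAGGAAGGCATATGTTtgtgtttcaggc
Asf1b: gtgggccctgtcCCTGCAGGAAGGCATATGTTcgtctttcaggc

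Asf1a (chromosome 10, 53596757 to 53609225, plus strand) was at 22.8 and 22.5 FPKM in si-ctrl 1 and si-Atad2 1, and at 24.2 and 22.3 FPKM in si-ctrl 2 and si-Atad2 2. The gap was small in pair 1 and larger in pair 2, and the mean log2 ratio was -0.07 (95% interval -0.21 to 0.08, adjusted p = 0.682). Of the windows of 50 bases in the annotated transcript, 65.8% also occur in a transcript of the overlapping gene Mcm9, and whether counting used the strand is not given. The only transcript assigned to Asf1a, of 2182 bases, was named by a near match in length, a rule that was right in 65.4% of the cases checked.

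Asf1b (chromosome 8, 83955507 to 83970197, plus strand) shared no window of 50 bases with another gene. Its level was 30.9 FPKM (si-ctrl 1) against 27.5 FPKM (si-Atad2 1) in pair 1, and 30.1 FPKM (si-ctrl 2) against 28.4 FPKM (si-Atad2 2) in pair 2. Both knockdown libraries were below both controls, and the mean log2 ratio was -0.12 (95% interval -0.27 to 0.02, adjusted p = 0.401). Asf1b was the more abundant copy in all 4 libraries. The ratio of Asf1b to Asf1a was 1.36 and 1.24 in si-ctrl 1 and 2, and 1.22 and 1.27 in si-Atad2 1 and 2, so the conditions overlapped.

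HIRA, together with UBN1 or UBN2 and CABIN1, places H3.3 at active genes. Hira (chromosome 16, 18877037 to 18970309, plus strand) was at 26.4 and 23.5 FPKM in si-ctrl 1 and si-Atad2 1, and at 26.5 and 26.2 FPKM in si-ctrl 2 and si-Atad2 2. The si-ctrl libraries were nearly equal, and si-Atad2 1 alone stood clearly below them. The mean log2 ratio was -0.09 (95% interval -0.24 to 0.06, adjusted p = 0.567), and without si-Atad2 1, with the libraries scaled together and no pairing, it was 0.01 (adjusted p = 0.98).

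The Hira reads were split between a transcript of 4533 bases and the shorter Hira-202 of 2044 bases. The shorter form was at 5.29 and 4.05 FPKM in si-ctrl 1 and si-Atad2 1, and at 6.07 and 5.11 FPKM in si-ctrl 2 and si-Atad2 2. Its share of the gene's FPKM was 20.1% and 22.9% in the si-ctrl libraries and 17.2% and 19.5% in the si-Atad2 libraries. These point values did not overlap, but how often the shares of other transcripts separate the conditions was not counted. The authors' intervals for the FPKM of the shorter form overlapped between si-ctrl 1 (4.61 to 5.98) and si-Atad2 2 (4.42 to 5.80). Only those of si-ctrl 2 (5.31 to 6.83) and si-Atad2 1 (3.44 to 4.66) were apart. Hira-202 was tested alone where names came by length only, with a log2 ratio of -0.26 and an adjusted p of 0.273 by limma, and where names came by length or by the only coding gene of the locus, an alternative added after seeing the data, the adjusted p was 0.112. The longer form was at 21.1, 19.4, 20.4 and 21.1 FPKM in si-ctrl 1, si-Atad2 1, si-ctrl 2 and si-Atad2 2. It was named by moving annotated ends, a rule right in 66.9% of the cases checked, and 64.4% of the 50-base windows of Hira-201 also occur in the overlapping gene Gm28539.

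The partners of HIRA were less abundant than Hira itself. Ubn1 lay between 7.35 and 8.34 FPKM (log2 ratio 0.10, adjusted p = 0.558), Cabin1 between 16.5 and 19.0 FPKM (log2 ratio -0.12, adjusted p = 0.467) and Ubn2 at most 6.09 FPKM (log2 ratio 0.15, adjusted p = 0.376). The ratio of Hira to Ubn1 was 3.59 and 3.48 in si-ctrl 1 and 2, and 2.82 and 3.33 in si-Atad2 1 and 2. That of Hira to Ubn2 was 4.88 and 5.30 in the si-ctrl libraries, and 3.85 and 4.60 in the si-Atad2 libraries. Both ratios were lower in both knockdown libraries, while Hira to Cabin1 (1.39 and 1.53 against 1.42 and 1.56) overlapped. Separation of the conditions was not particular to Hira: Nasp to Asf1a, for example, was 10.3 and 10.1 in si-ctrl and 10.8 and 11 in si-Atad2.

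DAXX carries H3.3 to heterochromatin and telomeres with the remodeller ATRX. Daxx (chromosome 17, 33909414 to 33915590, plus strand) was at 26.6 and 27.3 FPKM in si-ctrl 1 and si-Atad2 1, and at 27.5 and 26.3 FPKM in si-ctrl 2 and si-Atad2 2. The pairs differed in sign and the groups overlapped, with a mean log2 ratio of -0.01 (95% interval -0.16 to 0.13, adjusted p = 0.94). Atrx lay between 22.6 and 24.5 FPKM (log2 ratio -0.07, adjusted p = 0.682). The ratio of Daxx to Atrx was 1.13 and 1.12 in si-ctrl 1 and 2, and 1.17 in each si-Atad2 library.

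FACT is a dimer of SSRP1 and SPT16 that loosens the H2A-H2B contacts of the nucleosome and restores them. Ssrp1 (chromosome 2, 85037234 to 85047109, plus strand) was at 112 and 106 FPKM in si-ctrl 1 and si-Atad2 1, and at 112 and 112 FPKM in si-ctrl 2 and si-Atad2 2. The gap was small in pair 2, with log2 ratios of -0.08 in pair 1 and -0.001 in pair 2, and the mean log2 ratio was -0.04 (95% interval -0.17 to 0.09, adjusted p = 0.794). Supt16, its partner, was at 110.2, 104, 116 and 112 FPKM in the same order (log2 ratio -0.07, adjusted p = 0.614), and it was named by moving annotated ends, in a locus that overlaps Rpgrip1. The subunit transcripts stayed close to parity, with Ssrp1 over Supt16 at 1.02 in both libraries of pair 1 and at 0.959 and 0.994 in si-ctrl 2 and si-Atad2 2.

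**Figure D3:**
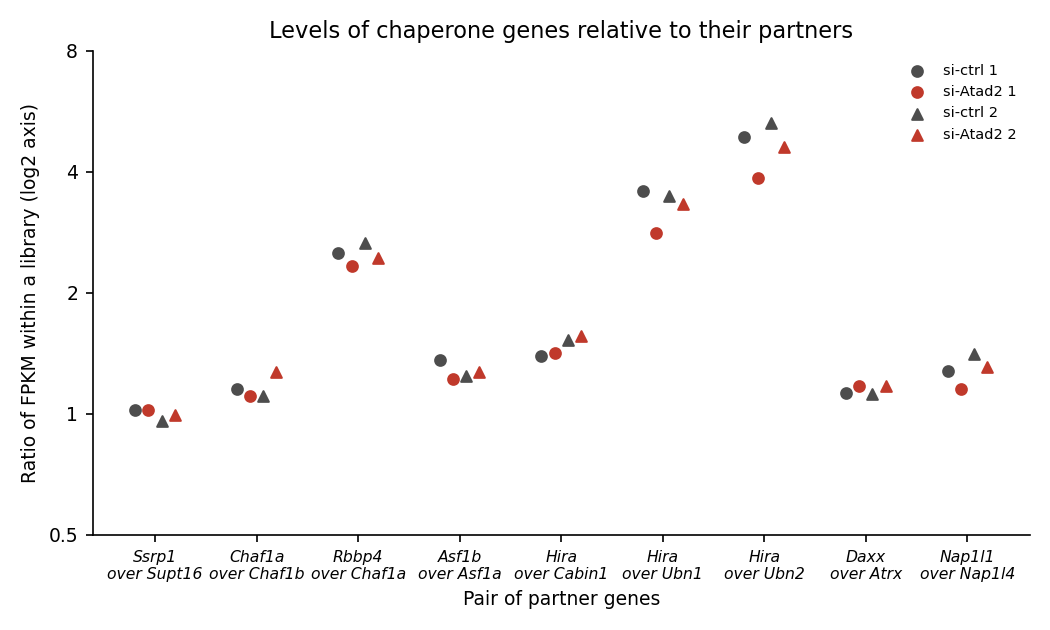
Ratio of the FPKM of chaperone genes to that of a partner gene within each library, on a log2 axis, with si-ctrl in grey, si-Atad2 in red, pair 1 as circles and pair 2 as triangles. A ratio within a library does not depend on its scaling; Ssrp1 over Supt16 stays near 1 in all 4 libraries, and Hira over Ubn2 lies at 4.88 and 5.30 in si-ctrl and at 3.85 and 4.60 in si-Atad2.

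No test was made of these ratios, since with 2 libraries against 2 the smallest p of a two-sided exact permutation test is 0.333. How often the ratio of any pair of genes separates the conditions was not counted, so the separations have no background.

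NAP1L1 is a cytoplasmic and nuclear carrier of H2A-H2B. Nap1l1 (chromosome 10, 111473223 to 111498150, plus strand) was at 102 and 86.0 FPKM in si-ctrl 1 and si-Atad2 1, and at 109 and 100.3 FPKM in si-ctrl 2 and si-Atad2 2. Both knockdown libraries were below both controls, with a log2 ratio of -0.25 in pair 1 and -0.12 in pair 2. The mean of -0.18 (95% interval -0.32 to -0.05) corresponds to 88.2% of the control level and had the smallest p of the members, 0.014 before adjustment and 0.196 after it by limma. It was smaller than the difference between the si-Atad2 libraries, 0.22. Without si-Atad2 2 (libraries scaled together, no pairing) the log2 ratio was -0.30 with an adjusted p of 0.00811, in a setting where 14.8% of all genes passed, and without si-Atad2 1 it was -0.05 with an adjusted p of 0.809.

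The transcript of 3431 bases held most of the Nap1l1 level, between 86.6% and 88.4% in the 4 libraries, and that of 1519 bases between 10.3% and 12.3%. The longer transcript was at 88.5, 75.2, 96.3 and 87.9 FPKM in si-ctrl 1, si-Atad2 1, si-ctrl 2 and si-Atad2 2, in the same order as the sum over the gene. The transcript of 1519 bases matches the annotated form Nap1l1-201, in which 72.4% of the 50-base windows occur in 2 other annotated genes elsewhere. Assignment of reads to this minor form is therefore uncertain. The transcript of 3431 bases matched no annotated form, so its windows were not checked, and how far the level of the gene is affected is not known. Nap1l4, a paralogue with a similar role, was between 75.0 and 80.1 FPKM (log2 ratio -0.05, adjusted p = 0.709). The ratio of Nap1l1 to Nap1l4 was 1.28 and 1.41 in si-ctrl 1 and 2 and 1.15 and 1.31 in si-Atad2 1 and 2, lower within each pair but overlapping across them.

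NPM1, or nucleophosmin, is an abundant nucleolar protein that binds H3-H4 and H2A-H2B. Npm1 (chromosome 11, 33152287 to 33163206, minus strand) was the most highly expressed member, at 669 and 633 FPKM in si-ctrl 1 and si-Atad2 1, and at 706 and 662 FPKM in si-ctrl 2 and si-Atad2 2. The knockdown library was the lower in each pair by a similar amount, with log2 ratios of -0.08 and -0.09, and the groups did not overlap. The mean was -0.09 (95% interval -0.20 to 0.03, adjusted p = 0.475). Its transcripts of 1422 and 1288 bases made up 81.8% to 84.5% and 15.2% to 17.9% of the level. Windows of 50 bases are shared with 11 other genes elsewhere and make up 40.9% of Npm1-201, so this level is also uncertain.

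NASP keeps a soluble reserve of H3-H4 and is made in a long and a short form. Nasp (chromosome 4, 116601052 to 116627941, minus strand) differs between these forms by 1 internal coding exon of 975 bases, at 116610403 to 116611377, which adds 325 codons without a shift of frame. This exon is the seventh of the long transcript. The annotated transcripts have 16 exons (long form) and 14 exons (short form), so they also differ elsewhere, and that difference was not examined. At this exon, reads inside it or across its junctions mark the long form, and the junction that skips it marks the short form. The junctions are shown for this reason. Exon bases are in capitals, with 30 bases on each side of a junction, read 5′ to 3′ along the transcript from the GENCODE sequences:
Nasp long form, into the exon: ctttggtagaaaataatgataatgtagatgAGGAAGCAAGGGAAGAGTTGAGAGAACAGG
Nasp long form, out of the exon: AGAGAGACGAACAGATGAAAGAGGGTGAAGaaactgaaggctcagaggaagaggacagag
Nasp short form: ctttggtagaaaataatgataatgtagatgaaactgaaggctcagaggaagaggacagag

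The long form predominated in these ES cells. Its transcript of 3087 bases was at 182 and 191 FPKM in si-ctrl 1 and si-Atad2 1, and at 190.1 and 190.4 FPKM in si-ctrl 2 and si-Atad2 2. This transcript was matched to the long form Nasp-201, annotated at 2520 bases, only by moving annotated ends. The short form, of 2118 bases, was at 43.3 and 41.8 FPKM in si-ctrl 1 and si-Atad2 1, and at 44.1 and 44.8 FPKM in si-ctrl 2 and si-Atad2 2. The transcript of 3087 bases therefore held 77.6%, 78.7%, 77.9% and 77.5% of the Nasp level in these libraries, a range in which the conditions overlapped. A transcript of 3581 bases, which matched no annotated form, held 3.2% to 3.6%. Summed over transcripts, Nasp was at 235, 242, 244 and 246 FPKM in the same order, with a mean log2 ratio of 0.03 (95% interval -0.09 to 0.15, adjusted p = 0.853). Only 1.3% of the 50-base windows of Nasp-201 occur in another gene.

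**Figure D4:**
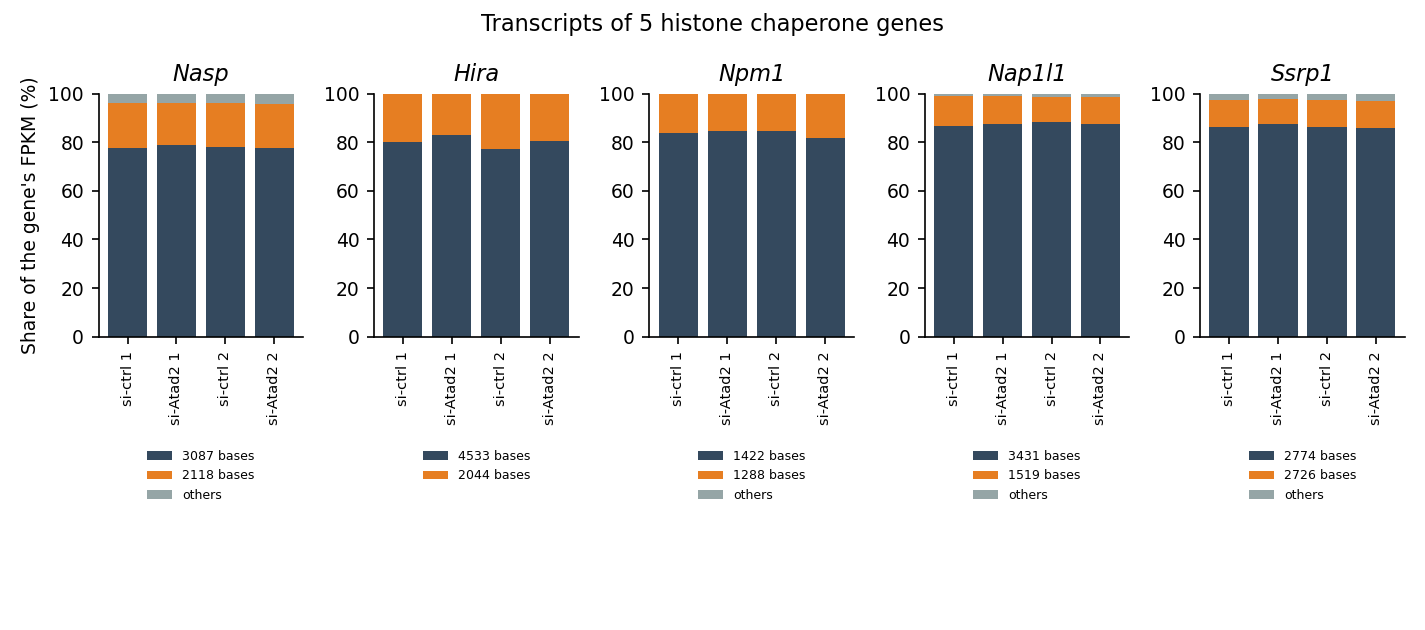
Share of the FPKM of Nasp, Hira, Npm1, Nap1l1 and Ssrp1, in percent, held by the main transcript (dark), the next (orange) and the others (grey), given by length in bases, in the 4 libraries. The Nasp shares are nearly level, and the Hira transcript of 2044 bases takes 20.1% and 22.9% in si-ctrl and 17.2% and 19.5% in si-Atad2.

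Other histone chaperones and complex partners gave a similar picture. Of 28 such genes listed, 25 could be tested and none passed by limma, against 1.48% of all genes, while 6 had an unadjusted p under 0.05, against 15.6% of all genes. Their median log2 ratio was -0.05, with 16 lower in both pairs (33.9% of all genes) and 7 higher (28.5%). The lowest were Grwd1 (-0.34, adjusted p = 0.088), Npm3 (-0.24, adjusted p = 0.13) and Anp32e (-0.16, adjusted p = 0.262), a chaperone of H2A.Z. The highest were Mms22l (0.18, adjusted p = 0.27), Dnajc9 (0.17, adjusted p = 0.259) and Ubn2. The value of Grwd1 rests on minor transcripts of 5.56 to 7.89 FPKM in sum. Its main transcript of 1902 bases lacked a valid estimate in at least 1 library and was left out. That transcript was listed at 34.7 and 32.9 FPKM in si-ctrl 1 and si-Atad2 1, and at 32.4 and 32.2 FPKM in si-ctrl 2 and si-Atad2 2. The log2 ratio of -0.34 thus leaves out most of the listed level of Grwd1. Without si-Atad2 2 (libraries scaled together, no pairing) 3 of these genes passed, Grwd1, Mms22l and Dnajc9, where 14.8% of all genes passed, and without si-Atad2 1 there was 1, Npm3, where 5.06% did. Mcm2, the helicase subunit that also holds H3-H4, was between 115 and 129 FPKM (log2 ratio -0.11, adjusted p = 0.394), and Rbbp7, its fellow histone binder, between 125 and 136 FPKM (log2 ratio -0.08, adjusted p = 0.531). Cdan1, Hirip3 and Hjurp had no transcript that could be tested.

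**Figure D5:**
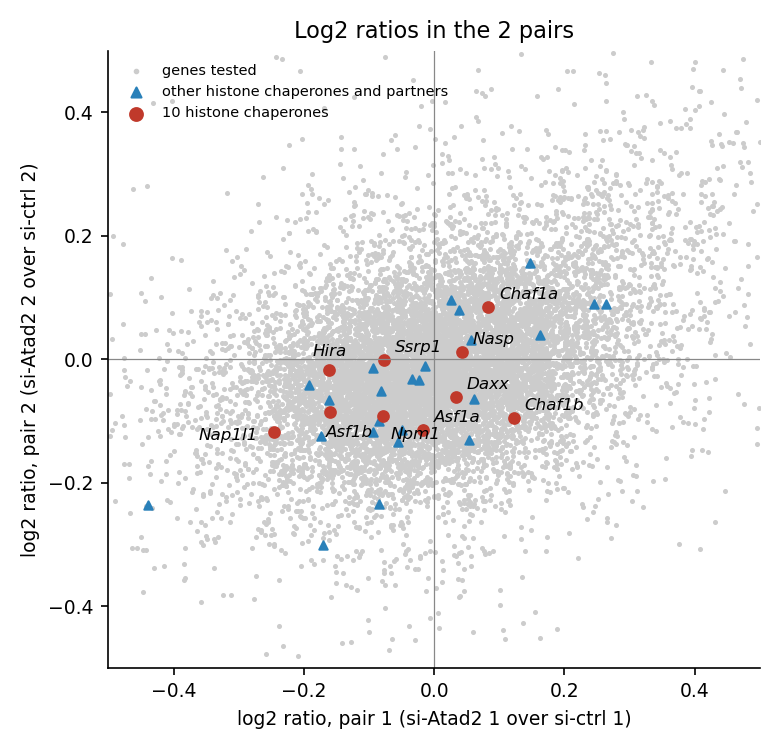
Log2 ratio of (FPKM + 1) in pair 1 against that in pair 2 for the genes tested (grey), the other histone chaperones and partners (blue triangles) and the 10 histone chaperones (red), with 257 of 11329 genes beyond the axes at 0.5. The 10 histone chaperones lie within the cloud of all genes, and among these 10 Nap1l1 is farthest to the left, at -0.25 and -0.12.

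Genes of S phase, when newly made histones are placed, and genes of replacement histones were looked at beside the chaperones. None of 15 replication genes passed by limma, against 1.48% of all genes, and 2 had an unadjusted p under 0.05, against 15.6%. Their median log2 ratio was 0.01. Rrm2, a subunit of ribonucleotide reductase, was highest at 0.27 (adjusted p = 0.088), followed by Ccne1 at 0.11 and Mcm3 at 0.07, and Pcna, the sliding clamp to which CAF-1 binds, was lowest at -0.25 (adjusted p = 0.194), followed by Mcm5 at -0.13 and Uhrf1 at -0.08. Pcna was at 109 and 80.6 FPKM in pair 1 and at 97.0 and 92.5 FPKM in pair 2. Without si-Atad2 2 (libraries scaled together, no pairing) Rrm2, Pcna and Mcm5 passed, where 14.8% of all genes did.

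None of 5 replacement histone genes passed by limma, against 1.48% of all genes. None had an unadjusted p under 0.05, against 15.6% of all genes, and their median log2 ratio was -0.05. H3f3b, the more abundant H3.3 gene, was at 337 FPKM (si-ctrl 1) against 407 FPKM (si-Atad2 1) in pair 1, but at 362 FPKM (si-ctrl 2) against 328 FPKM (si-Atad2 2) in pair 2. H3f3a lay between 65.1 and 69.4 FPKM (log2 ratio -0.05), H2afx had a log2 ratio of 0.08, Cenpa of -0.08 and H2afz of -0.11. Of the 50-base windows of H2afz-201, 69.6% occur in other genes, so its level of 23.6 to 26.4 FPKM is uncertain.

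Markers of other cells were low in all libraries. Of 6 fibroblast markers, Lum was listed at 0 in all 4 libraries, Dcn, Col1a2 and Col3a1 lay under 1 FPKM, and the sum of Thy1 and Col1a1 was 8.16 and 7.39 FPKM in si-ctrl 1 and 2 and 6.83 and 8.09 FPKM in si-Atad2 1 and 2. Of 8 markers of differentiating cells, 4 were under 1 FPKM and the others summed to 8.03 and 8.56 FPKM in si-ctrl and 7.76 and 7.95 FPKM in si-Atad2. The 10 ES cell markers summed to 3422 and 3480 FPKM in si-ctrl 1 and 2 and to 3223 and 3247 FPKM in si-Atad2 1 and 2, with 8 of 10 lower in both pairs (33.9% of all genes). None of them passed by limma (1.48% of all genes), and 5 had an unadjusted p under 0.05 (15.6% of all genes). The 10 chaperones summed to 1291 and 1343 FPKM in si-ctrl and to 1240 and 1288 FPKM in si-Atad2, and whether the markers had a part in these differences was not tested. In RNA from whole cultures, fewer cells of a type and less RNA per cell cannot be told apart.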

How the data were processed

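Of the 4 RNA-seq libraries (500 ng of total RNA, TruSeq, paired ends of 50 cycles), 2 were si-ctrl and 2 si-Atad2, and the authors ran Cuffdiff 2 times, on 1 library of each condition. The submitters' processing notes name TopHat, Cuffdiff and mm9, whereas the deposited coordinates lie on GRCm38. Versions are not given in the sources used here. The FPKM values deposited by the authors are scaled to library size within each run and carry a 95% interval, whose half-width was 1.11% to 4.52% of the level for the main transcripts of the members. They hold no counts, so the depth is unknown. The deposited fold changes and p-values of the authors' own comparisons were not used.

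The 59120 deposited transcripts carry no gene names. They were named from the GENCODE annotation vM21 by a length within 3 bases inside the locus (14564), by the only coding gene of the locus (29041) or by a length with moved ends (5093); weaker rules were used for Asf1a and Chaf1a only. The weaker rules and moved ends were set after seeing the tables. Their accuracy was checked on transcripts whose own match had been withheld. Transcripts of at least 200 bases whose estimate was valid in every library were summed per gene. Genes with a mean of at least 1 FPKM were tested with limma on the log2 ratios of (FPKM + 1) within each pair, with eBayes, a trend on the mean level and Benjamini-Hochberg adjustment at 0.05. Count models were not applied to FPKM. A pseudocount of 1 understates changes of low genes. The fit was also run on simulated data with independent libraries and no separate scaling of pairs. The real libraries may differ in both, so that run does not measure how often the fit errs here.

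The members and lists were chosen with earlier results of these data known. The genes named are all members, their partners, Atad2, the markers, and the 3 highest and 3 lowest log2 ratios of each other list; Nap1l4 and Ubn2 were also named, beside their paralogue or partner, after their values were seen. Alternatives were other pseudocounts, scalings, filters and naming, no pairing, no trend, removal of the trend with GC content and leaving out each library. Computations used limma 3.58.1 in R 4.3.3 and Python 3.11.15 with pandas 2.3.3, numpy 2.4.6 and matplotlib 3.10.9.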

Additional observations from a re-analysis of the deposited data

How the results depend on the processing

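The 2 deposited runs were scaled apart, so the main values are within pairs; same-numbered libraries showed no shared deviation from their group means (correlation -0.061 over genes). With no pairing (no replicate block, all libraries scaled together) 145 genes and none of the members passed, and the median of the members was -0.046. Results past the threshold numbered 0 among the members in all alternatives but 1: leaving out 1 library gave 0 to 1 members, 0 to 3 other chaperones, 0 to 3 replication genes and 28 (without si-ctrl 1 or 2), 573 (without si-Atad2 1) and 1682 (without si-Atad2 2) genes in all. The count of genes was 108 with median of ratios, 0 without the filter on level, 12 with transcripts of all lengths, 34 with transcripts named by length only, 99 without the trend and 318 at an adjusted p of 0.1. At that threshold 1 other chaperone and 1 replication gene passed, and 1 replication gene passed after rescaling to TPM and, as an alternative added after seeing the data, with names by length or the only coding gene. Without the filter Atad2 kept its log2 ratio of -1.53 with an adjusted p of 0.347.

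After rescaling to TPM the median was -0.0183 for the members and 0.0248 for all genes, beside -0.0523 and -0.00817 in the main fit. The median of the 3 members named by length was -0.022, where only Hira-202 and the short form stood for Hira and Nasp. When 1 library was left out the median of the members ran from -0.0752 to -0.0201 (-0.0238 without si-Atad2 1). It was -0.0464 in pair 1 and -0.0733 in pair 2. The genes below changed sign, and none of them passed a test under the setting where the sign turned. After rescaling to TPM, Daxx was at 0.0206 and Rbbp4 at 0.0066. With the GC trend removed, Daxx was at 0.00888, and with transcripts of all lengths Chaf1b was at -0.0457. Names by length only can keep just part of a gene's transcripts, for Nasp the short form alone. In that setting Nasp was at -0.0142, Mms22l at -0.0313 and Uhrf1 at 0.123. Leaving out 1 library or pair moved Ssrp1 between -0.0833 and 0.0198, Chaf1b between -0.0953 and 0.124, Hira between -0.172 and 0.00664, Daxx between -0.0613 and 0.0332 (0.02 without si-ctrl 2, 0.00258 without si-Atad2 2), Supt16 between -0.128 and 0.00957, Mcm5 between -0.258 and 0.00512, Cenpa between -0.162 and 0.00252, H3f3b between -0.142 and 0.271 (-0.0687 without si-Atad2 1) and H2afx between -0.021 and 0.196. The causes were not tested.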
